A study of Danio rerio with 24 samples.

Results

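Transcripts of 8 glycolysis enzyme genes were followed in early zebrafish embryos whose parents were fed sufficient or deficient vitamin E (VitE). The genes were taken by their Ensembl identifiers from the 32520 genes counted. Along the pathway they are aldoaa (ENSDARG00000011665), tpi1b (ENSDARG00000040988), gapdh (ENSDARG00000043457), gapdhs (ENSDARG00000039914), pgk1 (ENSDARG00000054191), eno1a (ENSDARG00000022456), eno3 (ENSDARG00000039007) and ldha (ENSDARG00000101251). Measured values played no part in that choice of identifiers, although earlier results of these data were known when the group was proposed. All embryos came from fish of the Tropical 5D strain, a wild-type laboratory line. Embryos from adults on the VitE sufficient diet (E+) were compared with embryos from adults on the deficient diet (E–) at 12, 18 and 24 hpf (hours after fertilization), with 4 pools of 10 embryos in each of the 6 groups. Only embryos that looked normal for their stage were collected, and they came from group spawns, so the diet of the parents and the spawn cannot be told apart. The labels name pools and not clutches, so p-values measure the spread between pools.

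Glycolysis breaks glucose down to pyruvate in the cytosol, with a small yield of ATP and of NADH, and its intermediates also feed the synthesis of nucleotides, lipids and amino acids. Most steps can be carried out by any of several related enzymes (isozymes) from separate genes, which in vertebrates differ between tissues. Fish often carry additional copies of these genes, marked a and b, from a duplication of the genome in their ancestors.

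Libraries were made with a kit that reads mRNA near its 3′ end, and read counts per gene ranged over the 24 pools from 10537272 to 20973407 in total (median 15436757.5). The 8 genes together took between 0.0341% and 0.107% of the gene reads of a pool. The lowest count of any of them in a pool was 52 reads, for gapdhs. Levels are given in CPM, the counts set to a common library size after scaling. They are compared mainly within a gene, and no length was used. Where levels of different genes are set side by side, they stand for reads and not for amounts of transcript. All 8 genes passed the filter on low counts that left 19597 genes for testing. Replicates 1 and 2 of each group were sequenced on lane 7 and replicates 3 and 4 on lane 8.

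Between 12 and 24 hpf, transcripts of 7 of the 8 enzymes rose and those of aldoaa fell, in E+ and in E– embryos alike. In E+ embryos all 8 passed an FDR of 0.1 over this interval, where 53.3% of all tested genes did (27.3% rose and 26% fell). In E– embryos all 8 passed too, against 55.5% of all genes (28.9% rose and 26.6% fell). Changes over time were thus common in the whole transcriptome. How many of all genes separated fully between times was not counted, so such separation below only describes the gene named. The median log2 fold change (log2FC) of the 8 genes was 1.69 in E+ and 1.105 in E– embryos, and the medians of all genes were 0.018 and 0.0627. As RNA came from whole embryos, more cells of a type and more RNA per cell cannot be told apart.

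**Figure D1:**
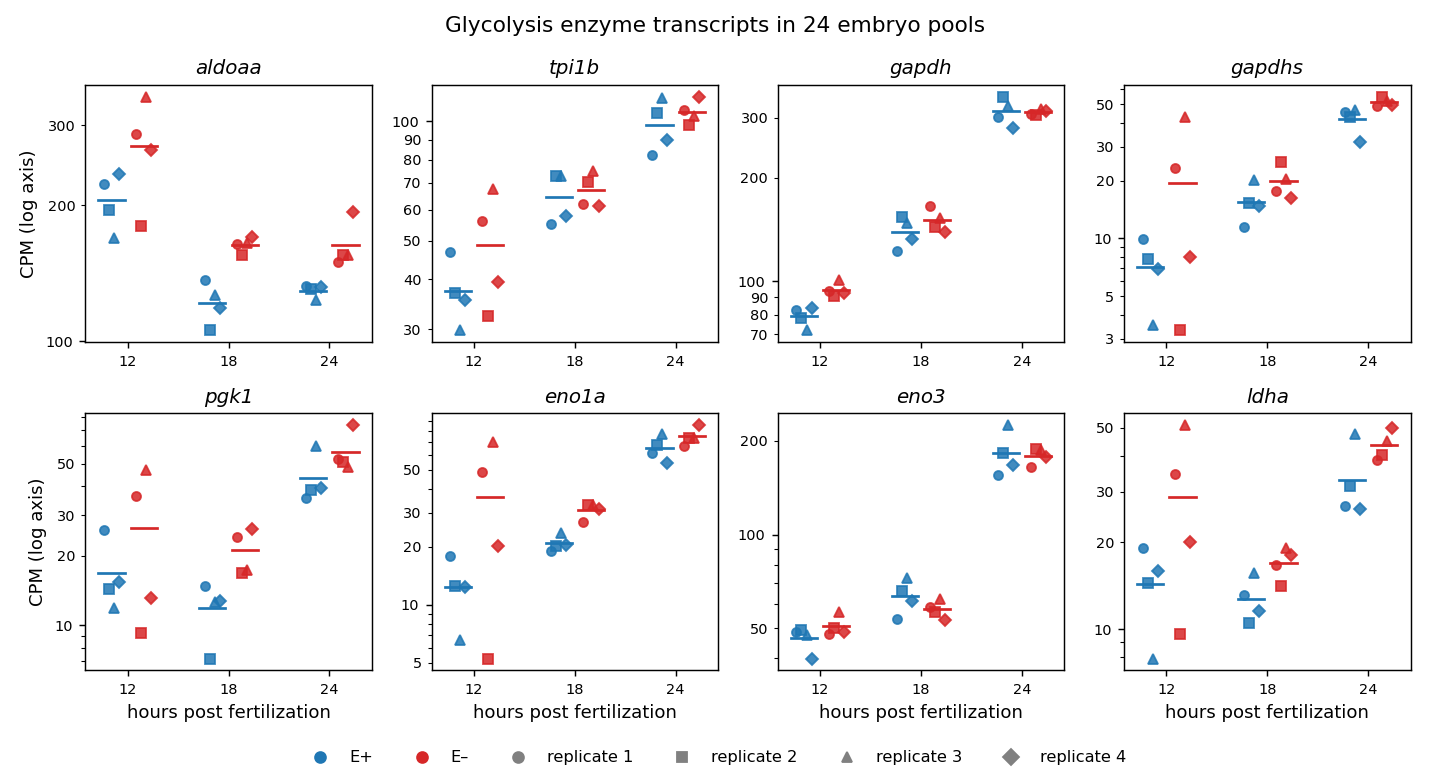
Level of each gene in each pool in CPM (log axis) against time, with E+ pools in blue, E– pools in red, a marker shape for each replicate number and a line at the group mean. The 7 genes other than aldoaa were higher at 24 than at 12 hpf in E+ pools, and E– 12 hpf replicates 1 and 3 lie far above replicate 2 for gapdhs, pgk1, eno1a and ldha.

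The upper part of the pathway was represented by aldolase and triosephosphate isomerase. Aldolase, the product of aldoaa, splits fructose bisphosphate into triose phosphates. In the E+ pools, replicates 1 to 4, aldoaa stood at 223, 195, 169 and 234 CPM at 12 hpf. At 18 hpf the same readings were 136, 106, 127 and 118 CPM, and at 24 hpf they were 132, 130.3, 123 and 131 CPM. No 12 hpf pool overlapped with a later one. The fall from 12 to 18 hpf was -0.75 (SE 0.12, FDR = 4.9e-06), and from 18 to 24 hpf the log2FC was 0.09 (SE 0.12, FDR = 0.689). In E– embryos the corresponding values were -0.72 (SE 0.12, FDR = 8.8e-06) and -0.0020 (SE 0.12, FDR = 0.994).

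A second gene given the symbol ALDOA (ENSDARG00000034470), the other copy of this enzyme gene, moved the opposite way. It averaged 7.93 ± 3.40 CPM (SD, n = 4) in E+ pools at 12 hpf, 87.0 ± 13.1 at 18 hpf and 397 ± 19.6 at 24 hpf. Its log2FC from 12 to 24 hpf was 5.65 (SE 0.19, FDR = 8.0e-24) in E+ and 5.98 (SE 0.19, FDR = 4.0e-24) in E– embryos. The 2 genes therefore changed in opposite directions while coding for the same enzyme type. Reads that mapped to several places (5.65% to 7.96% of a library) were not counted, and how far this removed reads from such copies was not tested.

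**Figure D2:**
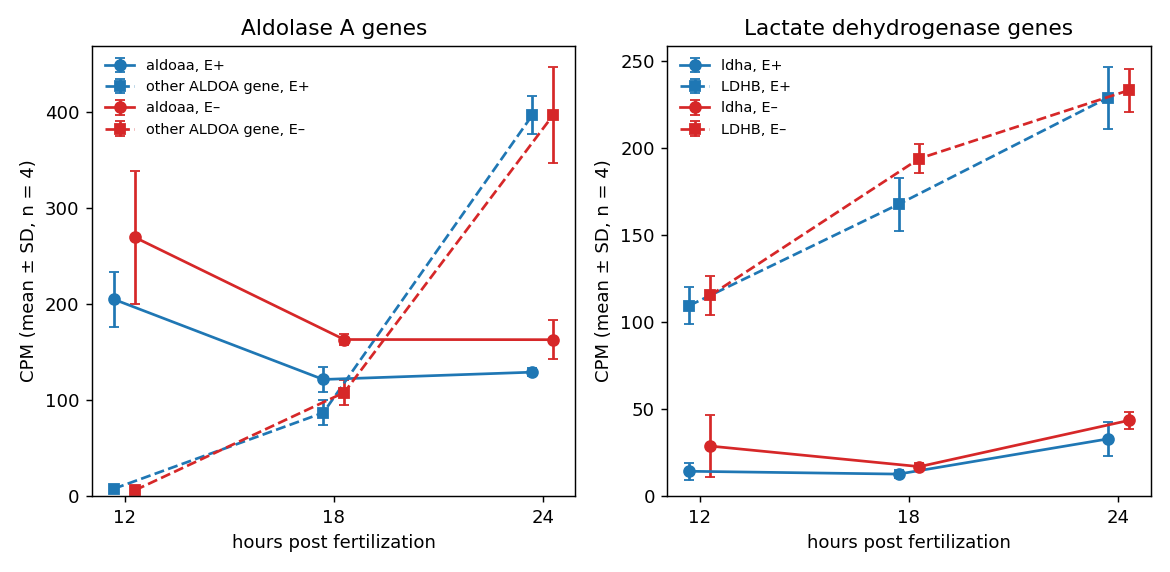
Mean ± SD CPM (n = 4 pools) over time of aldoaa and the other ALDOA gene (left) and of ldha and LDHB (right) in E+ (blue) and E– (red) embryos. Between 12 and 24 hpf aldoaa fell while the other ALDOA gene went from 7.93 to 397 CPM in E+ embryos.

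Triosephosphate isomerase, which interconverts the triose phosphates, is encoded by tpi1b. It climbed in steps, from 37.3 ± 7.11 CPM in E+ pools at 12 hpf to 64.6 ± 9.50 at 18 hpf and 97.9 ± 14.7 at 24 hpf. Both steps passed the test, with a log2FC of 0.79 (SE 0.15, FDR = 7.0e-05) and 0.60 (SE 0.15, FDR = 0.00347). In E– embryos the steps were 0.46 (SE 0.15, FDR = 0.0157) and 0.65 (SE 0.15, FDR = 0.00178), of which the first missed the threshold without E– 12 hpf replicate 2 (0.30, FDR = 0.104). The other TPI1 gene (ENSDARG00000025012) averaged at most 2.47 CPM in any group.

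The middle of the pathway, where NADH and the first ATP are formed, was represented by gapdh, gapdhs and pgk1. Glyceraldehyde 3-phosphate dehydrogenase is encoded by gapdh and by gapdhs, the latter named after the sperm form of mammals. At 12 hpf E+ pools 1 to 4 held 82.7, 78.2, 72.0 and 83.5 CPM of gapdh. Their counterparts at 18 hpf held 122, 154, 148 and 133 CPM, and those at 24 hpf 301, 345, 325 and 279 CPM. The 3 times did not overlap. Over the whole interval gapdh rose 3.95-fold in E+ embryos (log2FC 1.98, SE 0.08, FDR = 1.4e-20) and 3.30-fold in E– embryos (log2FC 1.72, SE 0.08, FDR = 5.9e-19).

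From a lower level, gapdhs rose from 7.08 ± 2.66 CPM at 12 hpf to 15.4 ± 3.61 at 18 hpf and 41.7 ± 6.77 at 24 hpf in E+ embryos, in all 5.91-fold (log2FC 2.56, SE 0.37, FDR = 3.5e-07). Its rise in E– embryos was 2.67-fold (log2FC 1.42, SE 0.35, FDR = 0.000838), starting from a mean of 19.3 ± 17.8 CPM. The log2FC of that E– rise was 2.15 without E– 12 hpf replicate 3 and 1.06 without replicate 2 of that group. Phosphoglycerate kinase transfers a phosphate to ADP and is encoded by pgk1. Its E+ level was 16.9 ± 6.22 CPM at 12 hpf, 11.8 ± 3.29 at 18 hpf and 43.3 ± 11.1 at 24 hpf. The first step did not pass the test (log2FC -0.52, SE 0.31, FDR = 0.198) and the second did (1.89, SE 0.31, FDR = 1.7e-05).

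In the lower part of the pathway, enolase forms phosphoenolpyruvate and is encoded by eno1a, related to the widely expressed form of mammals, and by eno3, related to their muscle form. At 12 hpf the level of eno3 in E+ pools 1 to 4 was 48.6, 49.4, 47.5 and 39.9 CPM. The pools of 18 hpf held 53.4, 65.9, 72.6 and 61.3 CPM of it, and those of 24 hpf 156, 183, 225 and 168 CPM. Every pool at 18 hpf was above every pool at 12 hpf, and every pool at 24 hpf above both. The rise was 3.94-fold in E+ embryos (log2FC 1.98, SE 0.10, FDR = 5.3e-18) and 3.55-fold in E– embryos (log2FC 1.83, SE 0.10, FDR = 5.2e-17). In E+ embryos eno1a went from 12.3 ± 4.61 to 20.9 ± 1.91 and 65.0 ± 9.52 CPM, a rise of 5.28-fold (log2FC 2.40, SE 0.35, FDR = 3.6e-07). The E– rise of eno1a was 2.07-fold (log2FC 1.05, SE 0.33, FDR = 0.00725), with a log2FC of 1.59 without E– 12 hpf replicate 3 and 0.69 without replicate 2. Its first E+ step, of 0.76 (FDR = 0.0858), lost its call when any of 7 pools was left out, which were every E+ pool at 12 and 18 hpf except 12 hpf replicate 1, with values of 0.54 to 0.80.

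Lactate dehydrogenase, which regenerates NAD+ by turning pyruvate into lactate, is made of subunits encoded by ldha and its relative LDHB. In E+ pools ldha averaged 14.3 ± 4.73 CPM at 12 hpf, 12.7 ± 2.21 at 18 hpf and 32.9 ± 9.97 at 24 hpf, with a rise confined in the test to the second step (log2FC 1.38, SE 0.28, FDR = 0.000336). The first step was -0.17 (SE 0.28, FDR = 0.676). Over the same time LDHB rose in both steps and reached 229 ± 17.9 CPM (12 to 24 hpf log2FC 1.06, SE 0.09, FDR = 6.0e-13). In E– embryos ldha fell from 28.8 ± 18.0 CPM at 12 hpf to 17.0 ± 2.19 at 18 hpf (log2FC -0.76, SE 0.27, FDR = 0.0286) and stood at 43.5 ± 5.14 at 24 hpf. That fall was -0.33 (FDR = 0.361) without E– 12 hpf replicate 3. The E– rise of ldha from 12 to 24 hpf (log2FC 0.60, SE 0.27, FDR = 0.0623) lost its call without E– 12 hpf replicate 2 (0.31, FDR = 0.278) or 4 (0.45, FDR = 0.197), and without E– 24 hpf replicate 3 (0.58, FDR = 0.106) or 4 (0.52, FDR = 0.144).

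Step by step, 6 of the 8 genes passed in E+ embryos from 12 to 18 hpf, of which 5 rose and aldoaa fell (43.9% of all genes passed, with 22.8% up and 21.1% down). From 18 to 24 hpf 7 of 8 rose in E+ embryos, against 13.1% of all genes that rose and 24.8% that passed. In E– embryos 4 of 8 passed in the first step, with gapdh and tpi1b up and aldoaa and ldha down (42.2% of all genes passed, 21.7% up and 20.4% down), and 7 of 8 rose in the second (11.2% of all genes rose and 21.8% passed). The E– values of the first step rest on uneven 12 hpf pools. With E– 12 hpf replicates 1 and 3 left out, a choice made after seeing the data, the E– log2FC from 12 to 18 hpf changed from -0.21 to 1.27 for eno1a (FDR = 0.000488), from -0.32 to 0.91 for pgk1 (FDR = 0.00903), from 0.04 to 1.78 for gapdhs (FDR = 4.4e-06) and from -0.76 to 0.19 for ldha (FDR = 0.663). Replicates 1 and 3 were the highest E– 12 hpf pools of these genes, so higher values were fixed by the choice. The FDRs of that fit are thus not evidence of a rise. None of the 8 genes passed the test of whether E– and E+ embryos differed in their course over time in edgeR's quasi-likelihood test (0.0153% of all genes did). At an unadjusted p under 0.05 there was 1 of them, eno1a (FDR = 0.616), against 6.69% of all genes. DESeq2 also called 0 of 8, and 104 of all 19597 genes.

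At 12 hpf the mean levels of all 8 enzymes were higher in E– than in E+ embryos. The difference passed the test for eno1a and gapdhs, or 2 of 8 genes, where 0.806% of all genes passed and 0.362% passed in the same direction. The median log2FC of the 8 genes was 0.52, against -0.0024 for all genes, and 7 of 8 had an unadjusted p under 0.05, against 10.6% of all genes. These are not 8 separate results, as all 8 genes were read in the same pools. In the 8 pools of 12 hpf, deviations from the group mean correlated at r of 0.85 to 0.98 among 6 of the genes. Enolase eno1a was 2.92-fold higher (log2FC 1.55, SE 0.35, FDR = 0.0344) and gapdhs 2.72-fold (1.44, SE 0.37, FDR = 0.0758, but 0.103 with DESeq2). Just outside the threshold was ldha, at 2.01-fold (1.01, SE 0.28, FDR = 0.101), which passed with TMM scaling (FDR = 0.0995), with edgeR's newer method (0.0905) and with all genes with reads (0.000384). The others were aldoaa at 0.40 (FDR = 0.164, but 0.0991 with DESeq2 and 0.0340 with all genes with reads), gapdh at 0.25 (FDR = 0.191), tpi1b at 0.39 (FDR = 0.324), pgk1 at 0.64 (FDR = 0.434) and eno3 at 0.13 (FDR = 0.732).

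**Figure D3:**
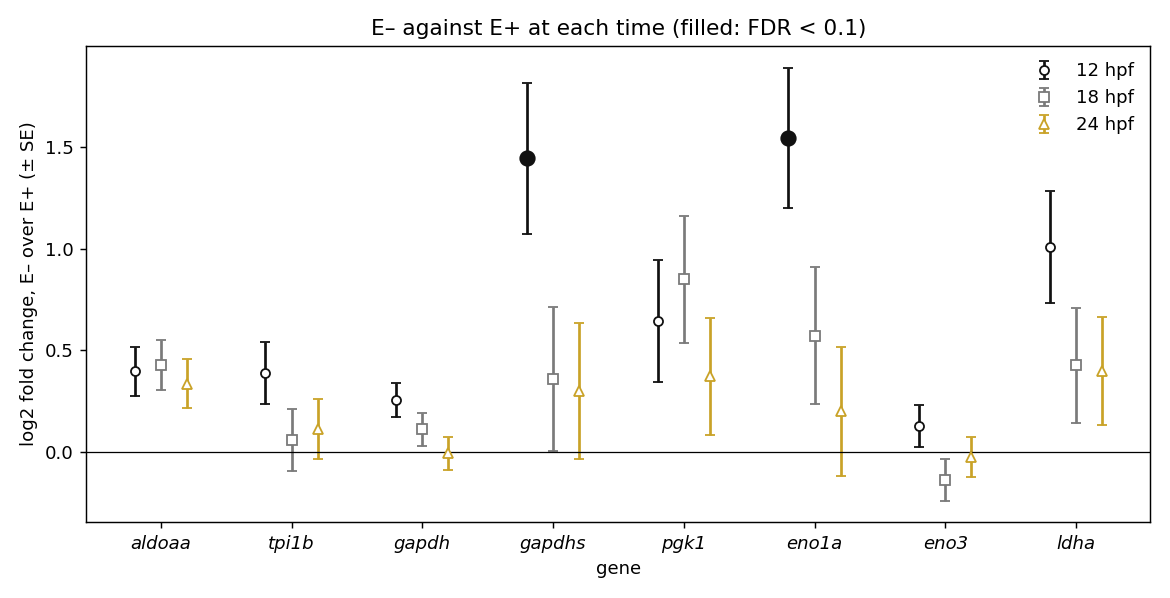
log2FC of E– over E+ embryos with its SE for each gene at 12, 18 and 24 hpf, with filled symbols for FDR under 0.1. Only eno1a (1.55) and gapdhs (1.44) at 12 hpf are filled, and values at 18 and 24 hpf lie between -0.14 and 0.85.

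The 12 hpf pools of E– embryos differed widely from each other. E– replicates 1 to 4 held 48.8, 5.26, 70.2 and 20.1 CPM of eno1a, while the E+ pools held 17.9, 12.5, 6.58 and 12.4 CPM. E– replicate 2 was thus the lowest of all 8 pools and replicate 3 the highest. For gapdhs the E– pools held 23.2, 3.33, 42.8 and 8.01 CPM and the E+ pools 9.95, 7.86, 3.56 and 6.95 CPM. For ldha they were 34.5, 9.61, 51.0 and 20.05 CPM in E– and 19.2, 14.4, 7.89 and 15.9 CPM in E+ pools. The E– and E+ pools of these 3 genes overlapped, and in each of them E– replicates 1 and 3 were above every E+ pool.

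The same order of the E– pools, with replicate 3 highest, replicate 1 next and replicate 2 lowest, was seen for aldoaa (287, 180.1, 347 and 264 CPM), tpi1b (56.0, 32.3, 67.7 and 39.5 CPM) and pgk1 (36.4, 9.29, 46.9 and 13.1 CPM). For gapdh the pools ran in that order over a narrow range, with 93.5, 90.6, 101 and 92.3 CPM. The order was not kept by eno3, with 48.0, 49.9, 56.3 and 48.4 CPM. Here gapdh was the only gene of the 8 whose E– pools all lay above the E+ pools at 12 hpf, as 1.97% of all genes did. The SD of log2 CPM over the 4 E– pools was 1.65 for eno1a, and of the 6996 genes with a mean of at least 10 CPM only 2 varied more in this group. The SD was 1.61 for gapdhs, with 3 genes more variable, 1.12 for pgk1, with 11, and 1.04 for ldha, with 18. It was 0.07 for gapdh and 0.11 for eno3, below the median of those genes, 0.18. The E+ 12 hpf pools were closer, but the same genes were also among the more variable there. Their SD was 0.62 for gapdhs, 0.59 for eno1a, 0.55 for ldha and 0.48 for pgk1, against a median of 0.16. The share of genes that varied more ran from 2.37% for gapdhs to 4.63% for pgk1.

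**Figure D4:**
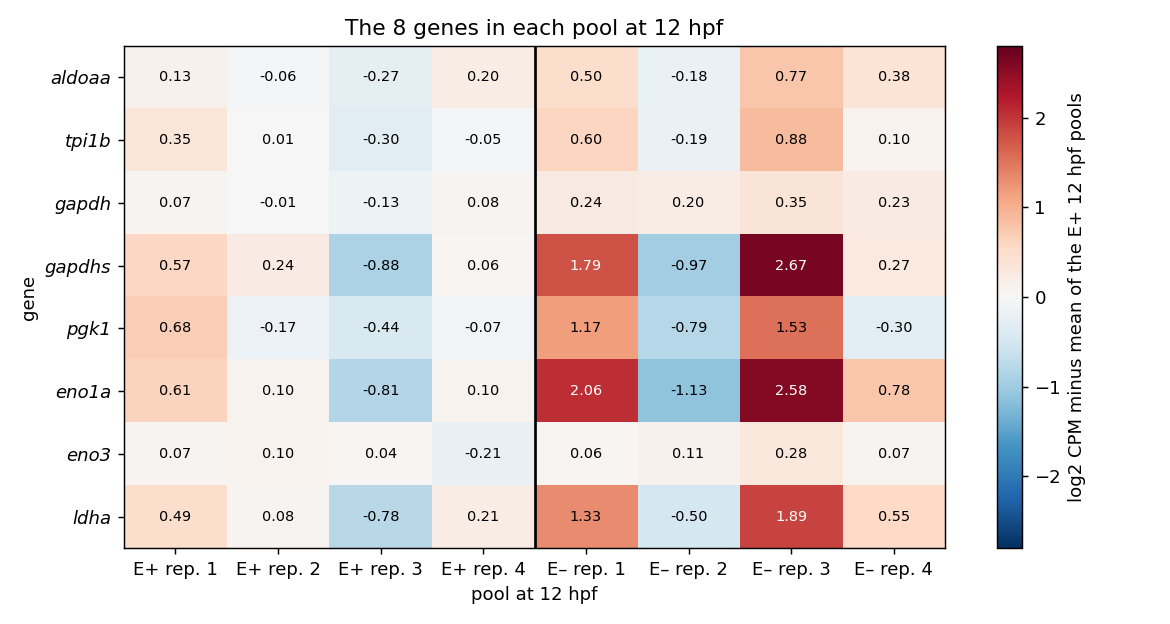
Level of each gene in the 8 pools at 12 hpf, as log2 CPM minus the mean of the E+ pools of that time, printed in each cell and shown by colour. E– replicates 1 and 3 are above the E+ mean for all 8 genes, by up to 2.67 for gapdhs, and E– replicate 2 is below it for 6 genes but not for gapdh (0.20) or eno3 (0.11).

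Deviations of the pools from their group means moved together among the 6 genes other than gapdh and eno3, a division made after seeing the values. Over 24 pools, Pearson's r of these deviations ranged from 0.60 to 0.96 over the 15 pairs (median 0.84). Between the 6 genes and gapdh or eno3 it ranged from -0.10 to 0.59 (median 0.31). The pools share library and depth, and most of the agreement among the 6 genes came from the earliest time. Within the 8 pools of 12 hpf r was 0.85 to 0.98, and within the 16 later pools it was -0.30 to 0.71 (median 0.34).

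The calls at 12 hpf depended on single pools. The log2FC of eno1a was 1.36 without E– replicate 1 (FDR = 0.138), 1.01 without E– replicate 3 (FDR = 0.256) and 1.33 without E+ replicate 3 (FDR = 0.116). For gapdhs the same fits gave 1.34, 0.71 and 1.21 (FDR = 0.204, 0.551 and 0.220), and without E+ replicate 4 it was 1.44 (FDR = 0.145). Without E– replicate 2, on the other hand, 6 of the 8 genes passed, all but gapdh and eno3, where 1.66% of all genes did, and the log2FC was 1.91 for eno1a and 1.80 for gapdhs. Both E– replicates 1 and 3 were also left out, a choice made after seeing the data. In that fit none passed (0.17% of all genes did), and eno1a stood at 0.06 (FDR = 0.987). These were the highest E– pools of eno1a and gapdhs, so lower values were fixed by the choice. Each lane held 1 of the high and 1 of the low E– pools, and the log2 CPM difference of eno1a was 0.11 on lane 7 and 2.04 on lane 8. For gapdhs it was 0.0030 on lane 7 and 1.87 on lane 8, and for ldha 0.13 and 1.505. Over both lanes the log2 CPM difference of eno1a averaged 1.07, less than its log2FC of 1.55, which is fitted to counts and not to their logarithms.

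At 18 hpf the E– pools were closer to each other and none of the 8 genes passed the test (0.398% of all genes did). At an unadjusted p under 0.05 there were 2, aldoaa and pgk1, against 9.14% of all genes. DESeq2 called 1, aldoaa (FDR = 0.0973), and 199 of all 19597 genes. E– replicates 1 to 4 held 26.8, 33.0, 32.8 and 31.4 CPM of eno1a and the E+ pools 19.1, 20.3, 23.6 and 20.5 CPM. For pgk1 the E– pools held 24.0, 16.7, 17.4 and 26.2 CPM and the E+ pools 14.8, 7.15, 12.7 and 12.7 CPM. For aldoaa they were 164, 155, 165 and 169.8 CPM in E– and 136, 106, 127 and 118 CPM in E+ pools. For these 3 genes every E– pool was above every E+ pool, as for 3.25% of all genes. The log2FC was 0.57 for eno1a (SE 0.34, FDR = 0.631), 0.85 for pgk1 (SE 0.31, FDR = 0.340) and 0.43 for aldoaa (SE 0.12, FDR = 0.164). The wide spread of eno1a and pgk1 at 12 hpf enters these errors, since the fit gives a gene 1 spread for all groups. E– 12 hpf replicates 1 and 3 were also left out, a choice made after seeing the data. In that fit pgk1 (FDR = 0.0716) and aldoaa (FDR = 0.0594) passed at 18 hpf with the same log2FC, where 0.607% of all genes did. There eno1a did not pass (0.57, FDR = 0.318). The 18 hpf pools were unchanged in that fit, so its calls are not further evidence of a difference at 18 hpf.

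At 24 hpf no gene of the 8 passed, and 0 of all genes did by edgeR's test. At an unadjusted p under 0.05 there was 1 of 8, aldoaa, against 6.67% of all genes. DESeq2 called 0 of 8, and 23 of all 19597 genes. E– pools held 149, 155, 155 and 193 CPM of aldoaa and E+ pools 132, 130.3, 123 and 131 CPM, with a log2FC of 0.34 (SE 0.12, FDR = 0.576). For gapdhs they held 48.8, 54.6, 51.8 and 49.6 CPM against 45.3, 42.8, 46.7 and 31.8 CPM, with a log2FC of 0.30 (SE 0.33, FDR = 0.930). In these 2 genes the E– pools were all above the E+ pools, as for 2.29% of all genes. The log2FC was -0.0075 (SE 0.08) for gapdh and -0.03 (SE 0.10) for eno3, each smaller than its SE.

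Over the 3 times together aldoaa (FDR = 0.0272) and eno1a (FDR = 0.0674) passed the test, 2 of 8 against 1.12% of all genes. The aldoaa difference was nearly the same at each time, 0.40, 0.43 and 0.34, and it kept its call in each of the 24 fits without 1 pool (FDR from 0.000392 to 0.0585). The 12 hpf value ran from 0.25 without E– 12 hpf replicate 3 to 0.55 without replicate 2 of that group. With E– 12 hpf replicates 1 and 3 both left out, a choice made after seeing the data, it was 0.12 (FDR = 0.915). These were the highest E– 12 hpf pools of aldoaa, so a lower value was fixed by the choice. The joint call of aldoaa stayed in that fit (FDR = 0.0393). All 4 E– pools were above every E+ pool at 18 and at 24 hpf, and 3 of 4 were at 12 hpf. The eno1a call was lost in 7 of the 24 fits. These left out E+ 12 hpf replicate 3 or 4, E– 12 hpf replicate 1 or 3, E+ 18 hpf replicate 1 or 2, or E– 18 hpf replicate 4, with an FDR of at most 0.222, and DESeq2 gave 0.120. Without both E– 12 hpf replicates 1 and 3, eno1a did not pass (FDR = 0.501) and pgk1 did (FDR = 0.0668), where 142 of 20609 genes passed. The remaining genes were ldha (FDR = 0.131), gapdhs (0.148), pgk1 (0.226), gapdh (0.310), tpi1b (0.518) and eno3 (0.753). With replicate 2 of E– 12 hpf left out 5 of 8 passed, against 1.81% of all genes, and with replicate 4 of that group left out 4, against 1.25%.

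Ratios of raw reads between 2 genes for the same reaction are free of library scaling. At 18 hpf the ratio of eno3 to eno1a was 2.79, 3.25, 3.08 and 2.99 in E+ pools and 2.18, 1.71, 1.90 and 1.69 in E– pools. The groups did not overlap, and the mean log2 ratio was 0.70 lower in E– embryos (-0.70 on the log2 scale, exact permutation p = 0.0286, two-sided, n = 4 and 4, adjusted p = 0.206 over 18 tests). At 24 hpf the ratio was 2.54, 2.72, 2.92 and 3.08 in E+ and 2.48, 2.58, 2.54 and 2.08 in E– pools, which overlapped (exact permutation p = 0.0571, adjusted p = 0.206). At 12 hpf it ran from 0.802 to 9.5 in E– pools and from 2.72 to 7.22 in E+ pools. The ratio of gapdhs to gapdh at 24 hpf was 0.151, 0.124, 0.144 and 0.114 in E+ and 0.159, 0.179, 0.163 and 0.159 in E– pools, again without overlap (log2 difference 0.32, exact permutation p = 0.0286, adjusted p = 0.206). None of the 18 tests passed an adjusted p of 0.05. As 0.0286 is the smallest p that 4 against 4 pools can give, a few fully separate ratios could not pass after this adjustment. That none passed therefore does not show that the ratios were alike.

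**Figure D5:**
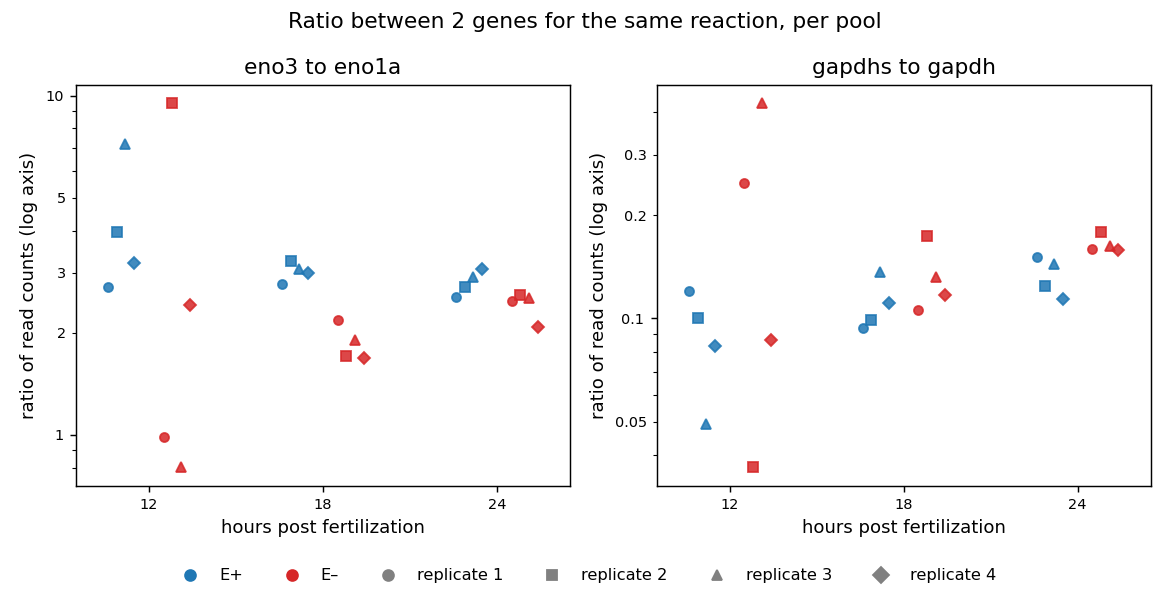
Ratio of raw read counts of eno3 to eno1a (left) and of gapdhs to gapdh (right) in each pool (log axis) against time, with E+ pools in blue, E– pools in red and a marker shape for each replicate number. At 18 hpf all E– pools (1.69 to 2.18) are below all E+ pools (2.79 to 3.25) for eno3 to eno1a.

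Among 25 further tested glycolysis enzyme genes, 3 passed over the 3 times together, where 1.12% of all genes did, and the same number passed, all higher in E–, at 12 hpf, where 0.362% of all genes passed in that direction. They were pgam1a, a phosphoglycerate mutase (12 hpf log2FC 0.97, SE 0.18, FDR = 0.0121), GPI (ENSDARG00000012987), a glucose-6-phosphate isomerase (1.04, SE 0.25, FDR = 0.0586), and ALDOC (ENSDARG00000019702), an aldolase of brain in mammals (1.37, SE 0.33, FDR = 0.0586). DESeq2 called all 3 at 12 hpf, where it called 307 of all 19597 genes. Over the 3 times together it called GPI, pgam1a and a PKM gene and not ALDOC, and 637 of all 19597 genes. The E– 12 hpf pools of pgam1a, GPI and ALDOC lay in the order seen for eno1a. Replicates 1 to 4 held 40.6, 19.2, 53.2 and 28.8 CPM of pgam1a, 65.3, 19.4, 89.9 and 29.7 CPM of GPI, and 64.4, 15.0, 99.5 and 24.8 CPM of ALDOC. Their pool deviations correlated with those of eno1a at r = 0.84, 0.92 and 0.87 over 24 pools, but with those of gapdh at 0.31, 0.33 and 0.38. These genes were named because they passed at 12 hpf, where high E– replicates 1 and 3 raise the difference. A pool order shared with eno1a is thus partly set by that choice. A pyruvate kinase gene, PKM (ENSDARG00000099860), passed at 18 hpf (log2FC 1.98, SE 0.49, FDR = 0.0853) from 0.267 ± 0.182 CPM in E+ to 1.06 ± 0.220 CPM in E– pools, a level of few reads. The other PKM gene (ENSDARG00000099730) had a log2FC of -1.47 at that time (SE 0.54, FDR = 0.338). Over all 25 genes the median log2FC was 0.14, 0.10 and 0.15 at 12, 18 and 24 hpf. From 12 to 24 hpf in E+ embryos 15 of the 25 rose and 2 fell (median 1.14), against 27.3% and 26% of all genes.

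Neighbouring pathways held no gene that passed for E– against E+, at any time or over the 3 times together, by edgeR or by DESeq2. Of all genes, edgeR passed 0.806%, 0.398% and 0% at 12, 18 and 24 hpf and 1.12% over the 3 times together. DESeq2 called 307, 199, 23 and 637 of all 19597 genes in that order. At such shares short lists hold few passing genes, so their absence does not set these pathways apart. The lists held 11 glucose and lactate transporters (median log2FC 0.17 at 12 hpf), 8 genes of gluconeogenesis (0.11), 7 of the pentose phosphate pathway (0.04) and 12 of pyruvate entry to mitochondria (0.17). At an unadjusted p under 0.05 at 12 hpf there were 2, 1, 1 and 4 of them, against 10.6% of all genes. Pool deviations were compared with those of eno1a for the genes of smallest joint p in each list. Over 24 pools r was 0.89 for the lactate transporter SLC16A3 (ENSDARG00000045051), 0.73 for PDK4 and 0.65 for pck2. The other genes so compared had r between -0.24 and 0.38.

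Of 13 regulators of the hypoxia pathway, which is known to raise transcription of several glycolysis genes in low oxygen, EGLN3 and EGLN2 passed over the 3 times together (FDR = 0.0298 and 0.0624) and EGLN3 passed at 12 hpf (log2FC 1.54, SE 0.34, FDR = 0.0323), where 1.12% and 0.806% of all genes passed. DESeq2 called 637 of all 19597 genes over the 3 times together. Among them was also hif1al2, at group means of 0.027 to 1.27 CPM, a level of few reads. Its mean was lower in E– than in E+ pools at 18 hpf (0.294 against 0.700 CPM) and higher at 12 and 24 hpf. EGLN3 and EGLN2 code for prolyl hydroxylases that mark hypoxia-inducible factors for breakdown. E– replicates 1 to 4 at 12 hpf held 156, 29.6, 237 and 59.3 CPM of EGLN3 and the E+ pools 40.6, 38.6, 27.3 and 59.6 CPM. The order of the E– pools was again that of eno1a, and r of the deviations was 0.86 for EGLN3, 0.60 for vhl, 0.52 for EGLN2 and -0.04 for hif1al2 over 24 pools. These 4 genes were those of smallest joint p in the list, so a pool order shared with eno1a may be partly set by that choice. Like aldoaa, EGLN3 fell with time, by 2.15 on the log2 scale from 12 to 24 hpf in E+ embryos (FDR = 8.0e-06). Of the 13 regulators, 10 were higher and 3 lower in E– embryos at 12 hpf (median log2FC 0.46). At an unadjusted p under 0.05 there were 5, against 10.6% of all genes. The median was 0.06 at 18 hpf and -0.02 at 24 hpf. A part of low oxygen in these differences was not tested.

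Transcripts of muscle markers were read in the same whole embryos, since eno3 and aldolase A are abundant in muscle. All 14 tested markers rose from 12 to 24 hpf, where 27.3% of all genes rose in E+ and 28.9% in E– embryos. Their median log2FC was 6.75 in E+ and 7.05 in E– embryos. Their summed level was 79.7 to 207 CPM in the 12 hpf pools, 1422 to 1927 CPM at 18 hpf and 7963 to 11021 CPM at 24 hpf. None of the 14 passed for E– against E+ embryos at any time by edgeR or DESeq2. Of all genes, edgeR passed 0.806%, 0.398% and 0% at 12, 18 and 24 hpf, and DESeq2 called 307, 199 and 23 of 19597. At such shares few of 14 genes would pass, so this does not show that muscle markers were alike. At an unadjusted p under 0.05 there were 3, 3 and 0 of the 14 markers, against 10.6%, 9.14% and 6.67% of all genes. The direction was not constant. At 12 hpf 13 of 14 were lower in E– embryos (median log2FC -0.36), and at 18 hpf 13 of 14 were higher (0.21). At 24 hpf 6 were higher and 8 lower (-0.04). The share of muscle in the rises of eno3 and gapdh was not tested.

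For 6 of the enzymes the tested gene with the most similar log2 CPM over the 24 pools is given. For gapdh it was MYL11 (r = 0.99), the regulatory light chain of fast muscle myosin, and for eno3 TNNI2 (r = 0.98), the fast muscle troponin I. For ldha it was ALDOC (r = 0.96) and for tpi1b malat1 (r = 0.96), a long noncoding RNA of the nucleus. For pgk1 it was EEF2K (r = 0.95), a kinase of the translation elongation factor, and for aldoaa si:dkey-85k7.7 (r = 0.95). These values describe mostly the shared change over the 3 times.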

How the data were processed

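Gene expression was measured by 3′ mRNA sequencing in 24 pools of 10 whole embryos. After a quality check with FastQC 0.11.5 and trimming with bbduk, the authors aligned reads to GRCz11 with STAR 2.7.3a and deposited raw counts per Ensembl gene, without normalization. Which strand was counted is not given in the sources used here, so overlapping genes on opposite strands are uncertain. Reads mapped to several places or to no gene were tallied apart and left out here (22.4% to 30.2% of a library lay on no gene). Groups, replicates and lanes came from the sample labels.

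The tests were run with edgeR 4.0.16 under R 4.3.3. Genes were kept by filterByExpr (minimum count 10, 19597 genes), scaled by TMMwsp and tested over the 6 group means by the quasi-likelihood F-test with Benjamini–Hochberg FDR under 0.1. An SE is the log2FC divided by the square root of F. log2 CPM used a prior count of 2. Isozyme ratios were compared by two-sided exact permutation tests over pools, adjusted over 18 tests. The 8 enzymes and the lists of other genes were chosen with earlier results of these data known. All 8 enzymes are named, with the gene of highest r for 6 of them (that of gapdhs and eno1a is not reported here) and up to 4 genes of smallest joint p per list. Deviation correlations and the division into 6 and 2 genes were looked at after seeing the values. Symbols in capitals come from a gene table of 29201 identifiers, which names pgk1 PGK2, and copies a and b there share a symbol. No sequence is shown. Replicate pools differed by more than sampling noise in all 36 pairs (4.88 to 20.7 for chi-square over its degrees of freedom). Alternatives were TMM, DESeq2 1.42.0, all 29109 genes with reads, edgeR's newer method, lane, a replicate block, FDR under 0.05, the most abundant genes left out, a pseudocount of 1 for ratios, and each pool left out. Depth covers counting error only. Figures used Python 3.11.15 and matplotlib 3.10.9.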

Additional observations from a re-analysis of the deposited data

Results flagged for a closer look

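Of 60 sets of 4 pools (the 8 enzymes and the 2 isozyme ratios in each of the 6 groups), 1 held a pool far from the other 3, where chance gives about 1 in 20, or 3 of the 60. In E– embryos at 24 hpf, replicate 4 held 193.4 CPM of aldoaa and the other pools 149.3 to 155.2 CPM. The same pool was also the highest of its group for pgk1 (73.6 CPM), eno1a (85.4 CPM), tpi1b (115 CPM) and ldha (50.01 CPM), but not for gapdh, gapdhs or eno3.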

How the results depend on the processing

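The number of the 8 enzymes that passed at 12 hpf was 2, and it was 1 at an FDR under 0.05. With the replicate block it was 1 (116 of 19597 genes). When all genes with reads were fitted it was 4 (338 of 29109 genes). It was 0 with E– 12 hpf replicates 1 and 3 both left out, as chosen after seeing the data (35 of 20609 genes). It was 0 to 6 when single pools were left out. Over the 3 times together it was 2, and 1 at an FDR under 0.05. It was 1 with DESeq2 (637 of 19597 genes) and 1 with the replicate block (175 of 19597 genes). With all genes with reads it was 5 (573 of 29109 genes), and without single pools 1 to 5. Without E– 12 hpf replicates 1 and 3 it stayed 2 (142 of 20609 genes), with pgk1 in place of eno1a. At 18 hpf it was 0, and 1 with DESeq2 (199 of 19597 genes) and 2 with all genes with reads (177 of 29109 genes). It was 2 without those E– replicates 1 and 3 (125 of 20609 genes), and 0 to 1 without single pools. For the course over time it was 0, and 1 with all genes with reads (122 of 29109 genes) and 0 to 1 without single pools. All other counts, those of development included, kept within 1.5 times in every alternative.

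Same-numbered E+ and E– pools did not deviate together (r from -0.05 to 0.04 over 12 pairs), so the replicate numbers are not a pairing. With the block, gapdhs at 12 hpf (log2FC 1.30, FDR = 0.143) and eno1a over the 3 times (FDR = 0.125) lost their calls.

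Signs changed mostly in values that had not passed, but also for gapdhs at 12 hpf and for ldha from 12 to 18 hpf in E– embryos. With E– 12 hpf replicates 1 and 3 left out, E– against E+ at 12 hpf became -0.053 for tpi1b, -0.30 for gapdhs and -0.59 for pgk1, and E– 12 to 18 hpf became 0.91 for pgk1, 1.27 for eno1a and 0.19 for ldha. With all genes with reads, gapdh at 24 hpf became 0.00012. Without single pools, the ranges that crossed 0 were -0.012 to 0.12 (tpi1b, 18 hpf), -0.057 to 0.044 (gapdh, 24 hpf), -0.095 to 0.062 (eno3, 24 hpf), -0.38 to 0.0014 (ldha, E+ 12 to 18 hpf), -0.31 to 0.78 (gapdhs), -0.60 to 0.11 (pgk1) and -0.58 to 0.33 (eno1a) for E– 12 to 18 hpf, and -0.094 to 0.038 (aldoaa, E– 18 to 24 hpf). The ratio of eno3 to eno1a ranged from -0.60 to 0.59 and from -0.23 to 0.96 for E– 12 to 18 and 12 to 24 hpf, and that of gapdhs to gapdh from -0.69 to 0.49 and from -0.34 to 0.83. DESeq2 gave an FDR of 0.190 for the first E+ step of eno1a and 0.1595 for the E– rise of ldha from 12 to 24 hpf. A pseudocount of 1 changed no ratio call. The cause was not tested.

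Over all genes, 158 passed at 12 hpf, and 307 with DESeq2, 338 with all genes with reads and 35 without E– 12 hpf replicates 1 and 3. In the same order the numbers for 18 hpf were 78, 199, 177 and 125, those for 24 hpf 0, 23, 26 and 0, and those for the 3 times together 220, 637, 573 and 142. For the course over time they were 3, 104, 122 and 3, with 0 under the lane term and 0 under the block.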
